A study of Mus musculus with 12 samples.

Results

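The baseline described here is the RNA of the testis of young adult mice, 3 months after birth (3M). It comprised 3 of the 12 samples of a study of testicular aging in C57BL/6 mice, which took 3 animals at each of 4 ages. The 3 samples were chosen by their age label and named mouse 1, mouse 2 and mouse 3 by their replicate numbers. All 3 were whole testis of wild-type C57BL/6 males with no treatment, 1 library per mouse, and whether the mice shared a litter was not known. Libraries were made from rRNA-depleted total RNA and carry no strand information, so reads of a gene and of an antisense partner could not be told apart. No other age entered the values below, and no groups were compared, so each value is given per mouse or as the mean ± SD over the 3 mice, with no test.

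In the seminiferous tubules, spermatogonia divide by mitosis, spermatocytes pass through meiosis, and the haploid round spermatids then elongate into sperm. During elongation the histones are exchanged first for transition proteins and then for protamines, which pack the sperm nucleus tightly, while the acrosome and the flagellum are built. Sertoli cells nurse the germ cells inside the tubules, and Leydig cells between the tubules make androgens.

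The abundance of a gene was measured as its reads, summed over the transcripts that matched the reference (class =), lay within a reference transcript (class c), shared only part of their junctions with it (class j) or overlapped it on the same strand in another way (class o). A share of reads is the reads of a gene divided by the reads of all 24336 genes. Levels that are compared between genes are given as summed FPKM (fragments per kilobase of transcript, scaled to the mapped fragments of the library), which takes transcript length into account. The deposited counts summed to 52537887, 56717376 and 57957440 reads in mouse 1, 2 and 3, and 94.8 to 95.05% of them lay in these classes. The mice were alike, with a Pearson correlation of log2(CPM + 1) across genes from 0.9955 to 0.9961 between pairs of mice, where genes are not independent replicates. The biological coefficient of variation between mice was 13.8% over 17365 genes.

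The 4 genes with the highest FPKM were all nuclear packaging genes of elongating spermatids. These were Prm2 and Prm1, the protamines, and Tnp2 and Tnp1, the transition proteins. All but Tnp1 lie side by side on chromosome 16, together with the protamine-like gene Prm3, in the order Prm1, Prm2, Prm3 and Tnp2, all on the minus strand. Their starts were 4718, 1191 and 2259 bases apart, and 8168 bases separated the first from the last. Tnp1 lies alone on chromosome 1, also on the minus strand. The sequences at the starts of these genes are shown because they hold the 4 genes with the highest FPKM of the tissue and their neighbour Prm3. Each window runs from 250 bases before to 50 bases after the RefSeq transcript start (build GRCm38.p6), 5′ to 3′ on the strand of the gene. Each start equalled the transcript start in the deposited table, on mm10, the same build. Capitals mark the letters TATAA or TGANNTCA found on either strand, which are the core letters of a TATA box and the outer letters of a cAMP response element. No overlap between the motifs was found in these windows. The windows were chr16:10796774-10797073 for Prm1, chr16:10792056-10792355 for Prm2, chr16:10790865-10791164 for Prm3, chr16:10788606-10788905 for Tnp2 and chr1:73015850-73016149 for Tnp1.
Prm1: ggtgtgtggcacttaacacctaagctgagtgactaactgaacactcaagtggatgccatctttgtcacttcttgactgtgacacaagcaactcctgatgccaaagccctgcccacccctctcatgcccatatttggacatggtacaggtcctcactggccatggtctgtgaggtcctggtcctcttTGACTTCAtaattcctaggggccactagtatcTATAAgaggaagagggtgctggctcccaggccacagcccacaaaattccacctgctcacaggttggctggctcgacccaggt
Prm2: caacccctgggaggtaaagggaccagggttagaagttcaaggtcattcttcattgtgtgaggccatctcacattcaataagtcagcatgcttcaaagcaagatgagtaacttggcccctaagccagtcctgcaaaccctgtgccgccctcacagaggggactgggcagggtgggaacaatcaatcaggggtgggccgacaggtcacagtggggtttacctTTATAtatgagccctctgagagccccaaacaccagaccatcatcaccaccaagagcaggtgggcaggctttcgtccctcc
Prm3: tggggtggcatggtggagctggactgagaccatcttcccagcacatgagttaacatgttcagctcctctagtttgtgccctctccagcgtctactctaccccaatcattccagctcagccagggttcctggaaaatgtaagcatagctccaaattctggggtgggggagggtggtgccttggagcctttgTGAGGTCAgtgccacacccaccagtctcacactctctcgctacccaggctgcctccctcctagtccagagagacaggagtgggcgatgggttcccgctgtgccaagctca
Tnp2: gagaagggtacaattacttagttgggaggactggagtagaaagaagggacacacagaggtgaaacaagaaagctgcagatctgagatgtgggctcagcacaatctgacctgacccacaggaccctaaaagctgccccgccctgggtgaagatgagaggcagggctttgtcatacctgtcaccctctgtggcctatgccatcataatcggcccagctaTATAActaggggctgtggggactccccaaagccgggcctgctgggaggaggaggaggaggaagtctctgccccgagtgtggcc
Tnp1: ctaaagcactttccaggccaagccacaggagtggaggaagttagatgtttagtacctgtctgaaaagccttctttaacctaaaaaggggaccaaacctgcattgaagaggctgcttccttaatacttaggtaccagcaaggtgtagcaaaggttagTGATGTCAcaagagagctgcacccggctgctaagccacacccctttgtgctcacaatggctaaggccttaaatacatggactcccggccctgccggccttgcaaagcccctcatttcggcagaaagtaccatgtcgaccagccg

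Prm1 held TATAA 32 bases and TGANNTCA 64 bases before its start. Prm2 held TATAA on the opposite strand 30 bases before its start, and Tnp2 held it on its own strand 33 bases before. Prm3 and Tnp1 held TGANNTCA 60 and 94 bases before their starts. Over all 32851 RefSeq windows of this length, 24.9% held TATAA and 14.1% held TGANNTCA on either strand. Of the 100 genes with the highest FPKM, 82 had a window, and 21 of their 120 windows (17.5%) held TATAA and 24 held TGANNTCA. Among 20 round spermatid markers, which are listed with the cell types below, 17 had a window, and 10 of these 17 genes held TGANNTCA, against 15.9% of all 27025 genes. They included Gapdhs, Izumo1, Tssk1 and Tssk2. Of these 10 genes only Izumo1 held TGACGTCA, the full letters of a cAMP response element. The others had other middle letters, such as TGACTTCA in Tssk2 and TGAGGTCA in Spaca4. Of the other germ cell lists TGANNTCA was held by 8 of 19 elongating spermatid genes with a window, 3 of 15 late spermatocyte genes, 2 of 20 early spermatocyte genes and 1 of 15 spermatogonial genes. A match of letters is a description of the window and not of a bound site, and the windows of 1 gene overlap.

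Prm2 was the most abundant gene by either measure. Its FPKM was 8159 in mouse 1, 7300 in mouse 2 and 8440 in mouse 3, and its share of reads was 0.559 ± 0.0414% (SD, n = 3). Prm1 stood at 6174, 5851 and 5676 FPKM, and Tnp2 at 5877, 5293 and 4726 FPKM. Tnp1 stood at 4191, 3658 and 3374 FPKM. Prm1, Tnp1 and Tnp2 were thus highest in mouse 1 and lowest in mouse 3, whereas Prm2 was highest in mouse 3. Prm1 and Tnp2 were close: their values overlapped across mice, although Prm1 was above Tnp2 within each mouse. Prm3 was far lower, at 322, 266 and 297 FPKM. Together the 5 genes took 1.43, 1.29 and 1.31% of the reads and 5.98, 5.58 and 5.51% of the summed FPKM. The 4 genes on chromosome 16 made up 4.77 ± 0.167% of the summed FPKM.

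Next by FPKM was Ldhc, the lactate dehydrogenase of germ cells, with 2182, 2074 and 2045 FPKM. Smcp, a cysteine-rich protein of the sperm mitochondrial sheath, had 1927 ± 88.7 FPKM, and its values did not overlap those of Ldhc. Gm1821 followed at 1903 ± 289 FPKM. The name Gm1821 is the deposited one. The leading transcript, of class j, lies on chromosome 11 from 62551504 to 62553206 of mm10. Gm1821 is a ubiquitin-like gene whose sequence is close to other ubiquitin genes. Its count, and which ubiquitin gene the reads belong to, are therefore uncertain. Odf2 and Odf1, which encode outer dense fibre proteins of the flagellum, had 1736 ± 51.5 and 1122 ± 57.5 FPKM. The glutathione transferase gene Gstm5 had 1561 ± 94.6 FPKM. Meig1, which is required for spermiogenesis, and Dbil5, a diazepam-binding inhibitor-like gene, had 1274 ± 43.1 and 1256 ± 88.5 FPKM, with ranges that overlapped. Gsg1, a germ cell-specific gene, had 1225 ± 48.9 FPKM, and the sperm cysteine-rich secretory protein gene Crisp2 had 1182 ± 51.7 FPKM. Oaz3, the germ cell antizyme that controls polyamines, had 1172 ± 38.6 FPKM. From Meig1 to Odf1 each neighbour in this order overlapped the next across mice.

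When genes were ranked by reads, which favour long transcripts, 16 of the first 25 were the same as when they were ranked by FPKM. Odf2 came second with 0.448, 0.427 and 0.445% of the reads. Akap12, a scaffold that anchors protein kinase A, came next with 0.331, 0.350 and 0.343%, followed by Tnp2 and Ldhc. Fhl4, a LIM-domain gene, held 0.289 ± 0.0120% and Pabpc1, a poly(A)-binding protein gene, 0.289 ± 0.00367%. Atp8b3, a phospholipid flippase of the acrosome, held 0.287 ± 0.0109%. These last 3 genes could not be ordered, since their ranges overlapped. Prm1, with a leading transcript of only 400 bases, was ninth by reads with 0.265 ± 0.0114%.

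Among the remaining genes of the first 25, the elongation factor genes Eef2 and Eef1a1 held 0.222 ± 0.00575% and 0.214 ± 0.00442% of the reads, and Ybx2, an mRNA-binding protein that stores germ cell messages, held 0.189 ± 0.0106%. Hexokinase Hk1 held 0.175, 0.172 and 0.246%, so mouse 3 stood above both others. Sord, sorbitol dehydrogenase, held 0.194 ± 0.00332%, and Gapdhs, the sperm glyceraldehyde-3-phosphate dehydrogenase, held 0.178 ± 0.0117%. Structural and regulatory sperm genes among the 25 were Tcp11, Akap4 of the fibrous sheath, the PHD finger gene Phf7 and the coiled-coil gene Ccdc136, at 0.218 ± 0.001997%, 0.215 ± 0.00681%, 0.208 ± 0.00473% and 0.201 ± 0.00577%. Gsg1, Crisp2, Smcp, Tnp1 and Gm1821 completed the list, at 0.179 to 0.195%. Col19a1, a collagen gene, held 0.212, 0.309 and 0.195%, the widest spread among them. Of its FPKM, 99.1% came from a single assembled transcript of 2 exons and class o, so the reads may not belong to the collagen message and its rank is uncertain.

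**Figure D1:**
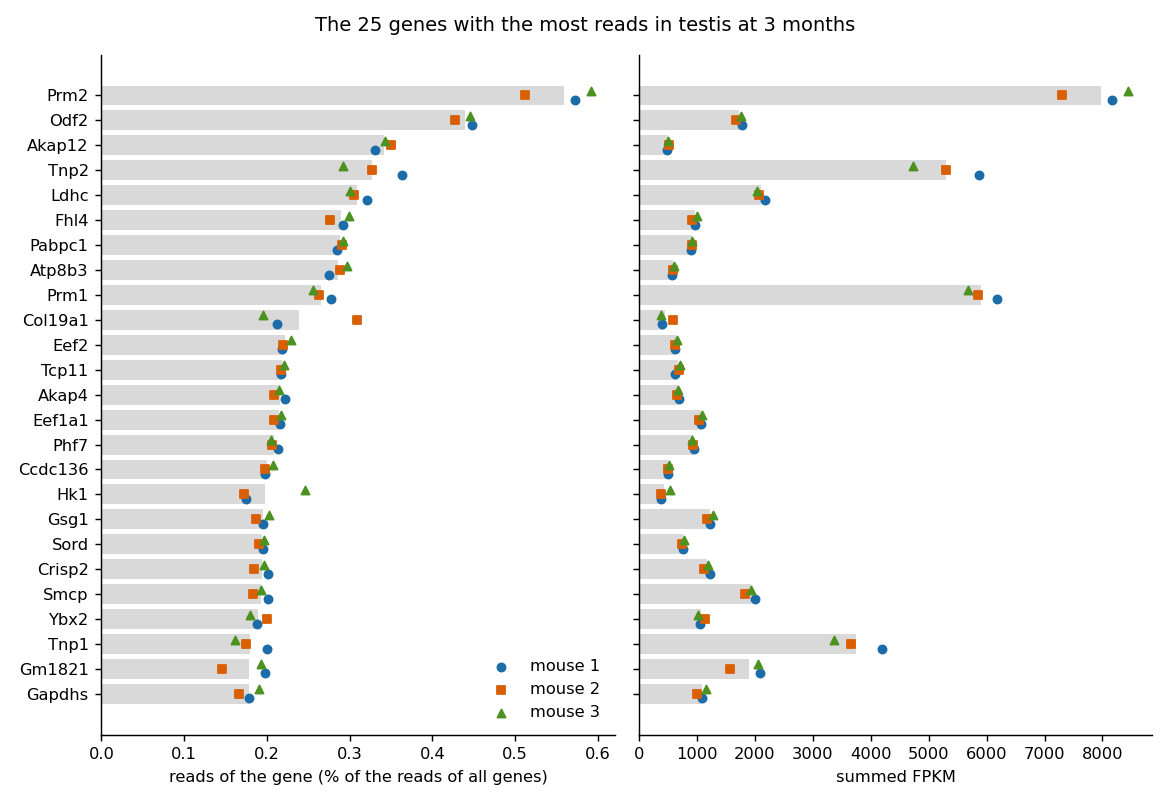
Share of reads (left, % of the reads of all genes) and summed FPKM (right) of the 25 genes with the most reads. Grey bars are means of 3 mice and symbols are single mice. Prm2 leads both panels, Prm1, Tnp2 and Tnp1 stand out more by FPKM than by reads, and Col19a1 and Hk1 each have 1 mouse above the other two.

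The reads were spread over many genes. The first gene took 0.559%, the first 10 took 3.35 ± 0.0346%, the first 100 took 14.6 ± 0.112% and the first 1000 took 48.8 ± 0.207% of the reads. By FPKM the same counts of genes took 1.95, 8.19, 21.96 and 57.1%. Of the 24336 genes, 12913 (53.1%) reached an FPKM of 1 in all 3 mice, and these held 99.1% of the reads. In all 3 mice 5598 genes reached an FPKM of 10, 757 genes reached 100 and 21 genes reached 1000. With reference matches (class =) only, 10327 genes reached an FPKM of 1 in all 3 mice. A count of 1 or more, to which any fraction of a read was rounded up, was found for 20213 to 20309 genes per mouse. Most of the genes thus had some count, which may be a fraction of a read, and the first 10 held a small part of the reads.

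Reads were next summed over marker lists of the cell types of the testis. Because whole tissue was sequenced, fewer cells of a type and less RNA per cell cannot be told apart. A list with more genes or longer transcripts also gathers more reads. Lists are named after a cell type or stage, but the cells or stages in which the RNA of their genes lay were not resolved. The 5 germ cell lists, with 99 genes, held 5.33 ± 0.150% of the reads (5.49, 5.19 and 5.30% in mouse 1, 2 and 3). The 7 somatic lists, from Sertoli cells to lymphocytes and with 94 genes, held 0.366 ± 0.0118%. The germ cell lists thus held 14.6 ± 0.665 times the reads of the somatic ones. Without the leading gene of each list the shares were 4.16 and 0.169%, a larger ratio but a smaller difference. The median FPKM of all genes was 1.56 ± 0.0286, which gives the level against which the medians of the lists can be read.

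Elongating spermatid markers led. The 21 genes held 3.25, 3.00 and 3.08% of the reads and 8.19% of the summed FPKM, and 20 of them reached an FPKM of 100 in all 3 mice. Their median FPKM was 446 ± 40.2, and the lowest member, the outer dense fibre gene Odf3, still had 61.4 ± 4.13 FPKM. Apart from the protamines and transition proteins the list included Akap4 at 672 ± 21.0 FPKM and Hils1, a spermatid linker histone, at 446 ± 40.2 FPKM. Leaving out Prm2 brought the list to 2.55% of the reads.

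Round spermatid markers were at a lower level. The 20 genes held 0.565, 0.519 and 0.573% of the reads, all reached an FPKM of 10 in all 3 mice, and their median FPKM was 108 ± 8.49. Gapdhs led with 1082 ± 73.2 FPKM and 32.3% of the reads of the list. The proacrosin-binding protein gene Acrbp had 308 ± 14.4 FPKM, and the spermiogenesis kinase gene Tssk2 had 260 ± 30.4 FPKM. The range of the other members ran from 180 FPKM for the kinase gene Tssk1 to 42.4 FPKM for the sperm calcium channel gene Catsper3. Crem, a transcription factor of spermatids that binds cAMP response elements, had 57.1, 54.9 and 62.2 FPKM.

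Late spermatocyte markers held 1.34 ± 0.0168% of the reads over 18 genes, with a median FPKM of 118 ± 1.04. Ldhc led with 23.0% of the reads of the list, ahead of Ybx2 at 1075 ± 61.2 FPKM and the related cold-shock gene Ybx3 at 815 ± 36.3 FPKM. The list was uneven, since Hist1h1t, a testis linker histone, had 2.32, 1.74 and 2.91 FPKM and the cyclin gene Ccnb3 had 0.930, 1.02 and 0.741 FPKM. Early spermatocyte markers, from leptotene to zygotene, held 0.235 ± 0.00287% over 22 genes, with a median FPKM of 24.4 ± 2.77. Synaptonemal complex genes led them, Syce1 at 197 ± 3.93 FPKM and Syce2 at 108 ± 5.57 FPKM, followed by the meiotic cohesin gene Stag3 at 93.1 ± 15.1 FPKM. The recombination genes Spo11, Dmc1 and Prdm9 were lower than these, at 30.8 ± 0.245, 6.02 ± 1.3 and 1.79 ± 0.314 FPKM. Not all synaptonemal complex genes were above them, since Tex12 had 11.1 ± 0.302 FPKM, below Spo11.

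Spermatogonial markers held 0.0868 ± 0.00149% of the reads over 18 genes, and 79.8% of that came from Dmrtb1 alone. This gene, a regulator of the switch from mitosis to meiosis, had 330, 312 and 330 FPKM. Without it the list held 0.0175%, and with class = only, all members included, 0.0275%. Uchl1, a ubiquitin hydrolase gene, and Id4, a marker of undifferentiated spermatogonia, followed at 28.6 ± 2.38 and 14.9 ± 1.44 FPKM. The median of the list was 2.13 ± 0.198 FPKM, and 11 of 18 members reached an FPKM of 1 in all 3 mice. The stem cell genes Gfra1, Zbtb16 and Ret had 2.66 ± 0.705, 0.624 ± 0.0796 and 0.149 ± 0.0130 FPKM. The median level of the germ cell lists was thus lowest in the spermatogonial list and highest in the elongating spermatid list, with the spermatocyte and round spermatid lists between them.

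**Figure D2:**
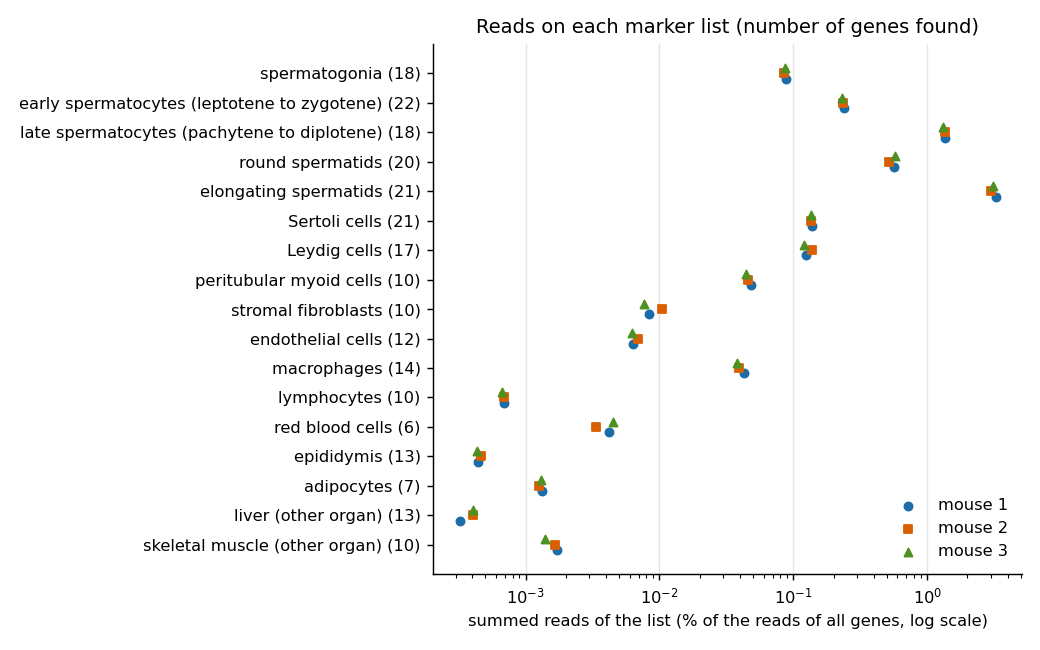
Summed reads of each marker list as a percent of the reads of all genes (log scale), with 1 symbol per mouse and the number of genes found in parentheses. Elongating spermatid markers lie near 3%, Sertoli and Leydig markers between 0.121 and 0.138%, and lymphocyte, epididymis and liver markers below 0.001%.

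Among somatic cells, the Sertoli cell list held 0.136 ± 0.00211% of the reads over 21 genes. Clu, clusterin, gave 55.4% of these, at 372, 371 and 367 FPKM. The list held 0.0607% without Clu and 0.205% with class = only. The defensin gene Defb19 had 184 ± 17.3 FPKM and the cystatin gene Cst9 108 ± 3.01 FPKM. The regulators were much lower, with the Sertoli transcription factor genes Wt1 and Sox9 at 12.1 ± 0.540 and 2.54 ± 0.239 FPKM and the receptor gene Fshr at 0.598 ± 0.0607 FPKM. Amh, the anti-Müllerian hormone, had 59, 1 and 63 reads, so mouse 2 was the exception.

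The Leydig cell list held 0.123, 0.138 and 0.121% of the reads over 17 genes. Insl3, a peptide hormone of Leydig cells, gave 46.8% of these (0.0679% of all reads were left without it), at 840, 946 and 922 FPKM, the only somatic marker among the 100 genes with the highest FPKM. Steroidogenic genes followed. Of the 17 members 11 were highest and 5 were lowest in mouse 2, so the list did not move as one. Cyp17a1 had 71.5, 95.9 and 63.9 FPKM, Cyp11a1 had 30.7, 42.0 and 30.1 FPKM, and Star, which brings cholesterol into mitochondria, had 7.51, 12.2 and 6.73 FPKM. Hsd3b6 had 40.1, 46.4 and 34.6 FPKM. Lhcgr, the receptor for luteinizing hormone, also stood highest in mouse 2, at 0.843, 1.54 and 0.680 FPKM. Scarb1, a receptor for lipoprotein cholesterol, was highest in mouse 1 instead, at 41.6, 23.9 and 25.5 FPKM, and the kallikrein gene Klk1b24 was lowest in mouse 2, at 16.7, 13.4 and 19.2 FPKM. In Insl3 mouse 2 did not stand apart from mouse 3.

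The remaining lists of cells outside the tubules were low. Peritubular myoid markers held 0.0462 ± 0.00182%, with 56.7% of this from the smooth muscle actin gene Actg2 at 141 ± 10.3 FPKM. The list held 0.0200% without Actg2 and 0.0190% with class = only. Myl9 and Acta2, also of smooth muscle, had 29.8 ± 0.757 and 15.3 ± 0.639 FPKM. Macrophage markers held 0.0399 ± 0.00270%, and 77.9% of it came from Aif1 at 322, 280 and 273 FPKM. The next members, Lyz2 and C1qb, had only 9.28 ± 0.702 and 7.90 ± 0.326 FPKM, and without Aif1 the list held 0.00878%. Stromal fibroblast markers, led by Dcn, Fbln1 and Col1a2 at 9.65, 3.02 and 2.94 FPKM, held 0.00886 ± 0.00148%. Endothelial markers, led by Egfl7, Flt1 and Cldn5 at 4.33, 3.58 and 3.07 FPKM, held 0.00653 ± 0.000388%. Of the lists of testis cells, 4 had most of their reads from 1 gene, Dmrtb1, Clu, Actg2 or Aif1, and their totals say little of the other members.

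Blood, neighbouring tissue and other organs were checked in the same way. Lymphocyte markers held 0.000683 ± 1.36e-05% over 10 genes, led by Cd3d at 1.39 FPKM, with Cd3e at 0.280 FPKM and Cd3g at 0 reads in every mouse. Red blood cell markers held 0.00403 ± 0.000617%. The near-identical globin genes Hba-a1 and Hba-a2 took opposite orders, with 2, 213 and 622 reads for the first and 788, 321 and 75 for the second, and each alone is uncertain. How the reads were assigned between the copies was not tested. Hbb-bs and Alas2 had 9.34 ± 2.87 and 8.49 ± 2.04 FPKM.
Epididymal markers held 0.000447 ± 1.78e-05% over 13 genes, 91.1% of it from Rnase10 at 2.32 ± 0.183 FPKM, with Defb20 and Crisp1 at 0.187 and 0.0625 FPKM. Lcn5, Adam7, Adam28, Ovch2 and Spint4 had 0 reads in every mouse. Adipocyte markers held 0.00129 ± 3.19e-05%, led by Adipoq, Retn and Fabp4 at 6.54, 2.34 and 0.754 FPKM. Liver markers, with Alb and Fga at 0 reads and Apoa2, Serpina1a and Fgb at 0.637, 0.372 and 0.333 FPKM, held 0.000377 ± 4.65e-05%. Skeletal muscle markers, with Myh2 and Tnnt3 at 0 reads and Actn3, Mylpf and Ckm at 3.56, 0.839 and 0.656 FPKM, held 0.00159 ± 0.000164%. The libraries therefore showed the markers of testis and had little or none of the defining genes of epididymis and liver.

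Many genes of spermatogenesis have a testis form beside a widely used form. In 21 such pairs the testis form had the higher FPKM in all 3 mice for 18, the widely used form for 2, and 1 was mixed. The pairs were chosen for having a known testis form, each with 1 partner. The count therefore describes the pairs chosen and is no independent result. Other settings turned the direction of Gykl1 and Slc25a31, as given beside their values. The median log2 ratio of testis form to widely used form was 2.90, 2.83 and 2.92 in the 3 mice. The phosphoglycerate kinase pair stood furthest apart, with Pgk2 at 538, 482 and 538 FPKM against Pgk1 at 6.17, 6.01 and 5.86 FPKM, a log2 ratio of 6.43 ± 0.0980. Gapdhs exceeded Gapdh by 5.78 ± 0.0505 on the log2 scale, and the centrin Cetn1 exceeded Cetn2 by 5.48 ± 0.141. The phosphatase pair Ppp1cc and Ppp1ca had 4.59 ± 0.0667, but 1.27 with reference matches (class =) only, and Ppp1cc makes a widely used isoform as well as that of the testis. The cytochrome oxidase pair Cox8c and Cox8a had 4.03 ± 0.0180, and Prps1l1 and Prps1 of nucleotide synthesis had 4.01 ± 0.0558. Gykl1 and Gk, of glycerol kinase, gave 4.20, 4.32 and 7.34, and Gykl1 had 7.03, 6.50 and 49.1 FPKM. With class = only this pair turned to -2.60. The same setting gave 8.18 for Pgk2, 3.98 for Cetn1, 2.41 for Pdha2 and -0.24 for Cstf2t.

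The other pairs had smaller ratios. Pdha2 and Pdha1, of pyruvate dehydrogenase, and Ppp3cc and Ppp3cb, of calcineurin, had log2 ratios of 3.55 ± 0.2002 and 3.53 ± 0.0372. The cytochrome c pair Cyct and Cycs had 2.89 ± 0.0474, and the ribosomal pair Rpl10l and Rpl10 had 2.30 ± 0.149. Ldhc exceeded Ldha by 2.17 ± 0.0552 although Ldha had 468 ± 10.01 FPKM, and Hspa2 exceeded Hspa8 by 2.12 ± 0.0562. Cox6b2, Psma8 and Taf7l exceeded their partners by 1.59 ± 0.0456, 1.53 ± 0.0963 and 1.27 ± 0.0404. Tbpl1 exceeded Tbp by 0.42, 1.05 and 1.01, so mouse 1 stood below both others. Slc25a31 and Slc25a4, both mitochondrial ADP/ATP carriers, had a log2 ratio of -0.0667 ± 0.175. It turned to 0.86 when reads were used in place of FPKM, and no other partner was compared with Slc25a31. In the other two pairs the widely used form was higher, Cstf2 over Cstf2t with a log2 ratio of -0.88 ± 0.04995 and Aldoa over Aldoart1 with -1.53 ± 0.0172.

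**Figure D3:**
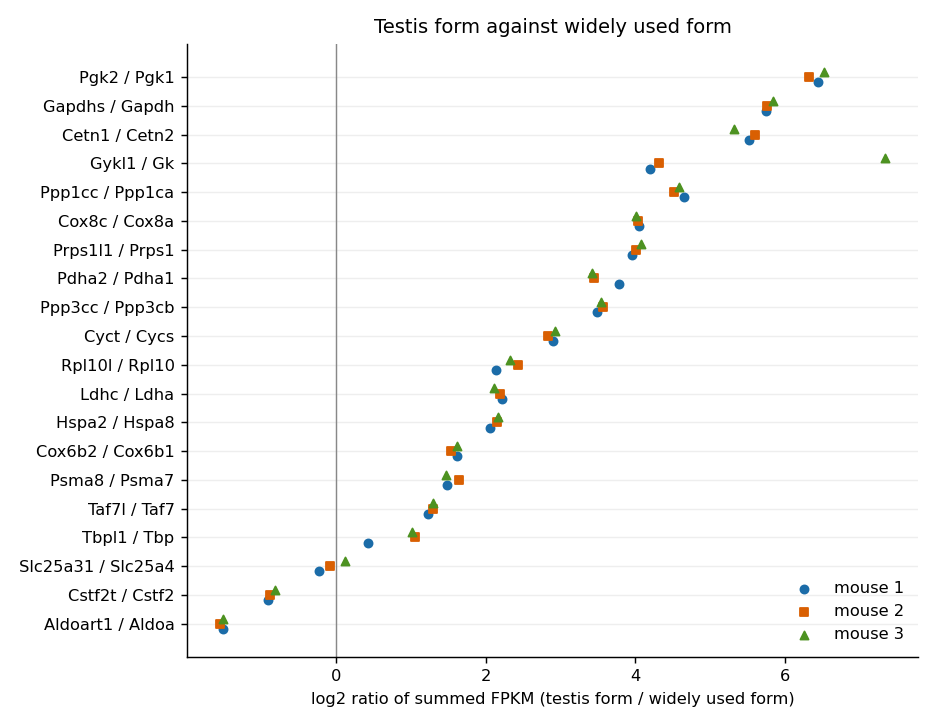
Log2 ratio of summed FPKM of the testis form over the widely used form for 20 of the 21 pairs, with 1 symbol per mouse and the line at equal FPKM. Points right of the line have the testis form higher. Pgk2 over Pgk1 is furthest right by its mean, and Gykl1 over Gk has mouse 3 far from the other two.

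In 7 of the pairs the widely used form lies on the X chromosome. The sex chromosomes are silenced in pachytene spermatocytes, and autosomal copies of X-linked genes are a textbook feature of the testis. The testis form was higher in all mice in 6 of these 7 pairs, with a median log2 ratio of 4.01 ± 0.0558, and in 11 of the 13 pairs with neither form on X, with a median of 2.18 ± 0.0252. With class = only the 7 pairs gave 8.18 (Pgk2), 4.03 (Prps1l1), 3.98 (Cetn1), 2.84 (Rpl10l), 2.41 (Pdha2), -0.24 (Cstf2t) and -2.60 (Gykl1). The median of the pairs with neither form on X was not taken under this setting. Over the whole genome the X chromosome held 1034 genes, 4.25% of all, and 1.24, 1.19 and 1.20% of the reads. Its share of reads was thus 0.285 times its share of genes, while the autosomes ran from 0.727 on chromosome 13 to 1.27 on chromosome 17. Akap4 alone gave 17.8% of the reads of X and was the only X-linked gene among the 200 genes with the most reads. The number of X-linked genes with RNA was less low: 46.3% of them reached an FPKM of 1 in all 3 mice, against 44.9 to 62.2% on the autosomes. Their median FPKM of 0.895 also lay within the range of the autosomes, 0.694 to 3.13, although the mean of 5.88 lay below the 11.9 of chromosome 13, the autosome with the lowest mean. The Y chromosome held 41 genes and 0.0327 ± 0.00179% of the reads, led by Gm20871 of a multicopy family, whose count is uncertain.

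**Figure D4:**
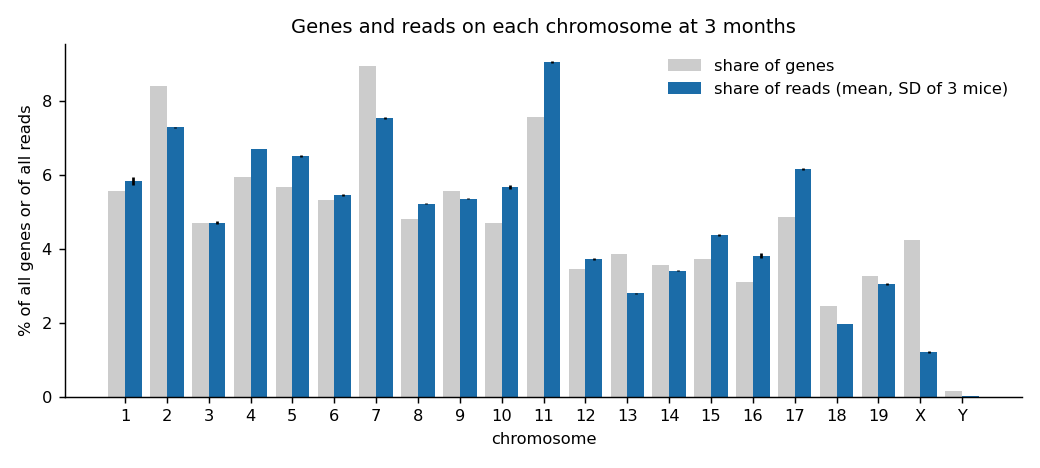
Share of genes (grey) and share of reads (blue, mean with SD over 3 mice) by chromosome, in percent of all genes and of all reads. X holds 4.25% of the genes and 1.21% of the reads, and chromosomes 11 and 17 hold more reads than genes.

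Isoforms were counted as assembled transcripts of a gene. The assembly was merged by the authors over the libraries of all ages, so a transcript could have been assembled from another age, but its values are those of the 3-month mice. It held 60321 transcripts for the 24336 genes, 2.48 per gene. With an FPKM of 1 reached in all 3 mice there were 20739 isoforms of 11870 genes, 1.75 per gene. Of these genes 58.0% had 1 isoform, 24.3% had 2, and 3.59% had 5 or more. Counted in each mouse on its own, the mean was 2.001 ± 0.00264 isoforms per gene. The number was larger for genes of higher level, from 1.24 isoforms at a mean FPKM of 1 to 10 to 2.25 at 10 to 100 and 2.35 at 100 or more. This order is partly fixed by the threshold, since a gene of low FPKM cannot hold many isoforms above it.

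Most of the genes with the most isoforms were not among the 25 with the most reads. BC051142 had 34 isoforms that reached this FPKM, of 36 assembled, and its leading transcript held 22.3, 21.4 and 21.7% of its FPKM. Fam71d had 23 isoforms, and Trip12, a ubiquitin ligase gene, had 16. Ttll10, of tubulin glycylation, and Vprbp each had 12 isoforms. Odf2, Atxn2l, Ccdc108 and the phospholipase gene Pla2g6 each had 11. Odf2 was thus both second by reads and among the 10 genes with the most isoforms. Its leading transcript matched the reference and held 49.0, 49.9 and 50.4% of its FPKM.

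Among 8310 expressed genes with several assembled transcripts, the leading transcript held a median of 65.2% of the FPKM of the gene. It held over 90% in 16.5% of these genes and under 50% in 26.0%. The same transcript led in all 3 mice for 6004 genes (72.3%). Of the 200 genes with the most reads, 153 had several transcripts, and in 121 of these the leading transcript was the same in every mouse. One transcript carried all of the FPKM although a second was assembled in, among others, the ribosomal gene Rplp0, 1700123L14Rik, Rimbp3, the chaperone gene Dnajb3 and the chaperonin gene Cct7. At the other end, the leading transcripts of Trip12, BC051142, the initiation factor gene Eif4g3 and Hk1 held means of 19.1, 21.8, 23.9 and 24.5%. In Hk1 the reference transcript of 4100 bases and class j transcripts of 4166 and 4027 bases held 24.5, 24.3 and 24.0%, nearly equal parts.

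**Figure D5:**
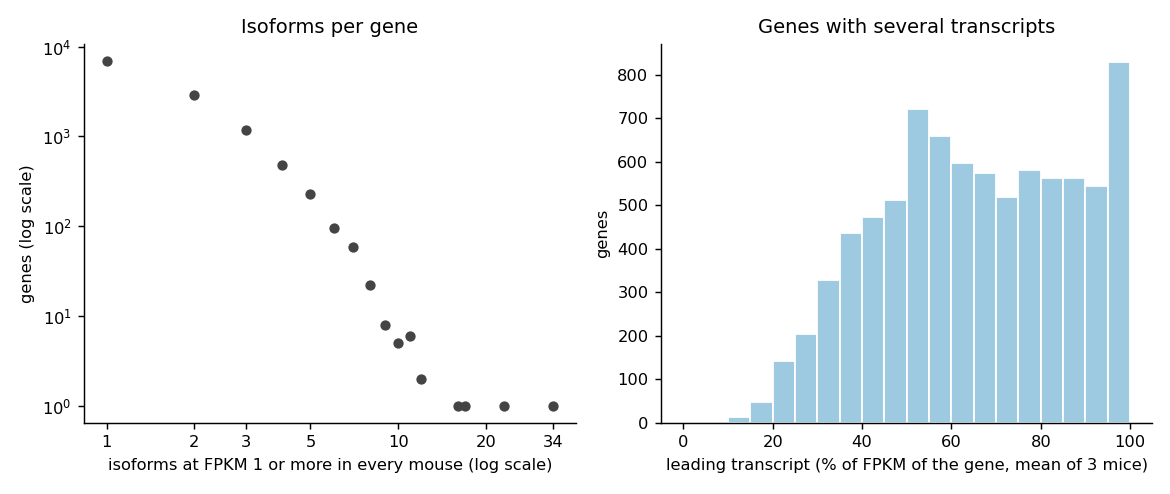
Left, number of genes by number of isoforms that reached an FPKM of 1 in all 3 mice (both axes log scale). Right, number of genes by the share of the gene's FPKM held by its leading transcript, in bins of 5%, for expressed genes with several transcripts. Of the genes on the left 6890 have 1 isoform, and the tail ends at the 34 of BC051142.

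Transcripts that share only part of their junctions with the reference (class j) took 36.1, 36.3 and 35.9% of the reads, and 24.1 ± 0.0720% of the FPKM. Reference matches (class =) took 63.2 ± 0.280% of the reads. A class j transcript led 3399 (40.9%) of the genes with several transcripts and 57 of the 153 in the 200 most abundant genes. Akap12 was the most abundant of these. Its 2 class j transcripts, of 5965 and 5998 bases and 3 exons each, held 46.3 and 51.0% in mouse 1, 45.5 and 51.7% in mouse 2, and 61.9 and 34.9% in mouse 3, whereas the reference transcript of 4 exons held 2.68, 2.80 and 3.26%. On chromosome 10 of mm10 they start at 4347735 and 4346761, downstream of the reference start at 4266329. In Ccdc136 a class j transcript of 3544 bases held 99.4 ± 0.0422%. In Irgc1, an immunity-related GTPase gene, a class j transcript held 86.6, 85.9 and 85.0%. In Ccdc136 and Irgc1 the division was alike in every mouse.

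Elsewhere the division between similar transcripts differed from mouse to mouse more than the gene total did. Slc2a3, a glucose transporter gene, held 0.141, 0.149 and 0.115% of the reads, but of the class j transcripts with 3789 and 3794 bases the first held 8.27, 88.1 and 96.4% and the second 91.7, 11.8 and 3.54%. Bag6, a chaperone gene needed for spermatogenesis, held 0.108, 0.117 and 0.114% of the reads, and its class j leader of 4010 bases held 74.1, 72.3 and 8.39%. In mouse 3 the reference transcript of 3858 bases held 40.7% instead. The remaining class j leaders among the most abundant 10 were Gm1821, Oaz3, the repeat-containing gene Qrich2, Trip12 and the cold-shock gene Ybx1, whose leaders held means of 32.7, 26.3, 38.0, 19.1 and 47.9%. The coefficient of variation between mice was 13.8% for genes but 47.6% for transcripts. Beyond the genes named here and above, levels of single isoforms that differ by few bases were not examined apart from the other transcripts.

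A few genes differed widely between the 3 mice. Of genes with a mean of 10 CPM or more, Gm10731, a noncoding transcript of 1 exon, differed most, with 8377, 7553 and 82 reads. The gene 1110004E09Rik had 7460, 7986 and 241 reads. In both, mouse 3 was low. Pcdha2, a protocadherin gene of a cluster that shares its last exons, had 1959, 1 and 1 reads, and Bricd5 and Aqp12, a water channel gene, were also high in mouse 1 only, at 46.2 and 36.7 CPM against at most 1.26 CPM in the others. Rhbdl1 had 0 reads in mouse 1 and 36.8 CPM in mouse 3. The gene 4930526L06Rik was low in mouse 1 only, Noxred1 was low in mouse 2 only with 11 reads, and Ccdc97 was high in mouse 3 only, at 50.7 CPM against 1.81 and 1.503 CPM. Ptp4a1, a phosphatase gene, had 1526, 3443 and 129 reads. In Bricd5, Rhbdl1, Aqp12 and 4930526L06Rik the transcript with the most reads was of class j or o and reached beyond the reference gene. The part that the assignment of reads among overlapping transcripts has in these differences was not tested.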

How the data were processed

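Whole-testis RNA of 3 mice aged 3 months was analysed. Reads were aligned by the authors to mm10 (HISAT2), and StringTie 1.3.3b served for assembly, merging and quantification. The deposited read counts are estimated counts: the coverage of a transcript multiplied by its length and divided by the read length of 101, rounded up by the authors (0 of 71967 transcripts differed from this in any mouse). The deposited FPKM values carry no normalization between libraries. Exon numbers were taken from the assemblies that the authors deposited.

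Counts and FPKM of classes =, c, j and o were summed per gene identifier. Where 1 identifier had several symbols (220 genes), the symbol of the transcript with the most reads was used. No group was compared, and a within-mouse test over 3 mice could not go below an exact p of 0.25, so none was run. The biological coefficient of variation was the square root of the common dispersion of edgeR 4.0.16 (TMM, genes kept by filterByExpr, intercept only), tested on simulated data. Other steps used Python 3.11.15. Of 243 marker genes in 17 lists, 242 were found, Hbb-bt by its gene identifier.

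Named genes were the 25 with the most reads, the 15 with the highest FPKM (a transcript of 200 bases or more), the 3 highest members of each list and those at 0 reads, the 10 with the most isoforms, the 5 lowest and 5 highest by leading share and up to 10 led by class j among the 200 with the most reads, all pairs, and the 10 with the widest range over mice. Spo11, Dmc1, Prdm9, Crem, Wt1, Sox9, Fshr, Amh, Hist1h1t, Ccnb3, the steroidogenic genes after Cyp17a1 and Hsd3b6, and other members named beside these were chosen after their values were seen. Members and lists were chosen with earlier results of these data known. Promoter windows came from RefSeq (GRCm38.p6). The libraries of the other ages were not used here, and a few genes of the lists and rankings are not reported here by name.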

Additional observations from a re-analysis of the deposited data

Results flagged for a closer look

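Reads also lay on transcripts that overlap no reference gene (class u), which no value above uses. They held 3.64, 3.43 and 3.51% of all reads in the 3 mice, a mean of 3.53%, on 7594 transcripts at 4891 loci, and there were no control samples to set them against. The locus with the highest mean of these reads, on chromosome 12 from 8478833 to 8482234 of mm10, had 40928, 44214 and 44445 reads. It was not first in any single mouse. A locus on chromosome 8, from 70701016 to 70717698, had 37878, 45073 and 40495 reads. The mitochondrial chromosome, which is also counted among them, had 58066, 13070 and 45216 reads on its main locus, lowest in mouse 2. Groups of 3 mice are too small for a test of single values that stand apart.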

How the results depend on the processing

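No paired analysis was possible because no groups were compared. With reference matches (class =) only, with all classes, and with FPKM in place of reads, the first 100 genes held 19.0, 13.9 and 21.96%, the germ cell lists 7.27, 5.08 and 10.9%, the somatic lists 0.476, 0.350 and 0.671%, and the X chromosome 1.44, 1.26 and 1.49% (the X chromosome and its alternatives were added after seeing the data). With FPKM, 16 of the 25 genes with the most reads stayed among the first 25, and class j held 24.1%. Without the leading gene of each list, the germ cell and somatic lists held 4.16 and 0.169%. At an FPKM of 10 in place of 1 there were 5598 expressed genes. At an FPKM of 1 there were 10327 with class = only and 16095 with all classes. Isoforms per gene were 2.17 at an FPKM of 0.1, 1.24 at 10, 2.30 with 1 read or more and 1.19 with class = only. The median log2 ratio of the pairs was 2.61 with a pseudocount of 1, 2.18 with class = only and 2.54 with reads. With class = only Gykl1 and Gk turned to -2.60, and with reads Slc25a31 and Slc25a4 turned to 0.86. The coefficient of variation was 0.476 for transcripts in place of genes. Causes were not tested.

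Leaving out each mouse in turn gave 14.6 to 14.7% for the first 100 genes, 24 to 25 of the 25 genes shared, 5.25 to 5.39% and 0.360 to 0.372% for the germ cell and somatic lists, 13014 to 13064 expressed genes, 1.82 to 1.83 isoforms per gene (fewer mice have to pass), 36.0 to 36.2% on class j, 2.87 to 2.91 for the pairs, 1.20 to 1.22% on X and 0.131 to 0.143 for the coefficient of variation. Counting error was small at these depths for the genes with many reads, and lists such as lymphocytes and epididymis rest on few reads.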
